A study of Mus musculus with 9 samples.

Results

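The genes described are the enzymes and regulators of cholesterol synthesis together with the enzymes of fatty acid synthesis, a set of 32 mouse genes given by name. They were chosen by function, with earlier results of these data known. Of these, 31 had a probeset named to them alone on the array, out of 19938 named genes, and all 31 passed the filter on dim genes. The remaining gene, Acat2, was not analysed here. For each gene the probeset with the highest mean over all arrays was used, and only Idi1, Fdft1 and Acaca had more than 1 to choose from. The values are log2 expression levels from Affymetrix arrays, so a difference of 1 is a doubling.

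The samples were RNA pools from colons of males of the inbred C57BL/6J strain, aged 9 to 11 weeks. All mice, those later given heme included, ate a high-fat diet with 40% of its energy as fat during a run-in of 1 week. For the heme group 0.2 µmol of heme, the iron-bearing pigment of red meat, was then added to each g of that diet, and the group was sampled after 2, 4, 7 and 14 days. The control group stayed on the diet without heme and was sampled at the end of the run-in (day 0) and after 2, 4, 7 and 14 days. Each day and diet is 1 array of RNA pooled from 4 mice (3 in the control pool of day 2), so the study holds 4 heme pools and 5 control pools. Different days stand in as replicates in any test of diet, and a pool shows nothing of the spread between its mice. The arrays were made from cells scraped off the opened, washed colon after mesenteric fat had been removed, so a value averages over all cells in the scraping. In such a mixture, fewer cells of a type and less RNA per cell cannot be told apart.

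Cells build cholesterol from acetyl-CoA by way of mevalonate, which is turned into isoprenoid units, then squalene, then lanosterol, and at last cholesterol. Fatty acid synthesis starts from the same acetyl-CoA, which is carboxylated, assembled into palmitate, and then lengthened and desaturated. Both branches are controlled by SREBP transcription factors: SREBP-2, encoded by Srebf2, mainly drives the sterol enzymes, while SREBP-1c, from Srebf1, mainly drives the fatty acid enzymes, and Insig proteins hold both in the endoplasmic reticulum while sterols are plentiful.

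The 9 arrays had medians of 5.90 to 5.96 and upper quartiles of 7.67 to 7.79 on the log2 scale, and the heme pool of day 14 had the lowest of each. The tissue label was borne out by colonocyte markers: Car1, a carbonic anhydrase of the colon surface, lay between 13.37 and 13.46 in heme pools and between 13.33 and 13.41 in control pools. The linear sum of 7 colonocyte markers was 30518 to 32163 in heme pools and 28815 to 29777 in control pools. That gap was Aqp8, a water channel, at 11.97 to 12.43 in heme pools and 11.42 to 11.65 in control pools: without it, a split made after the values were seen, the sums overlapped, at 26220 to 26925 in heme pools and 26035 to 26737 in control pools. Single markers still moved both ways in the heme pool of day 14. Krt20 (11.66) and Vil1 (11.47) lay above their control pools, at 11.25 to 11.35 and 11.28 to 11.33. Cdh1 (11.47), Epcam (11.63) and Slc26a3 (11.88) lay below theirs, at 11.64 to 11.76, 11.71 to 11.75 and 11.89 to 11.99. Of all genes tested, 32.1% lay above and 34.5% below every control pool that day. Both pools of day 2 stood apart: exocrine pancreas genes were on average 3.57 higher in the heme pool and 2.92 higher in the control pool than the control mean. Smooth muscle genes also varied widely between pools, at -1.29, -0.53, 0.80 and -1.05 relative to the control mean in heme pools of days 2, 4, 7 and 14, and from -1.14 to 1.52 in control pools. Goblet genes stood at 0.00, 0.05, -0.07 and -0.17 in the heme pools of days 2, 4, 7 and 14, against -0.05 to 0.03 in control pools. T and NK cell genes stood at 0.04, -0.04, -0.19 and -0.15, against -0.05 to 0.05. Fibroblast, endothelial, macrophage, and B and plasma cell genes were low in early and higher in late heme pools. On days 2, 4, 7 and 14 of heme, fibroblast genes stood at -0.73, -0.34, 0.24 and -0.02, against -0.65 to 0.54 in control pools. Endothelial genes stood at -0.37, -0.20, 0.11 and -0.05 in heme pools, against -0.31 to 0.46 in control pools. Macrophage genes stood at -0.51, -0.19, 0.14 and 0.10 in heme pools, against -0.37 to 0.42 in control pools, and B and plasma cell genes at -0.66, -0.28, 0.07 and 0.02, against -0.30 to 0.28. The highest control pool of each of these 4 lists was that of day 14, and their part in the results was not tested.

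The sterol enzymes were higher in heme pools late in the feeding period and near the controls early in it. Averaged over the 16 measured enzymes and taken relative to the mean of the 5 control pools, the log2 level was -0.03 in the heme pool of day 2, -0.01 on day 4, 0.29 on day 7 and 0.49 on day 14. The control pools stood at 0.14, -0.03, -0.15, -0.13 and 0.17 on days 0, 2, 4, 7 and 14. The controls thus had a course of their own, low on days 4 and 7 and high on days 0 and 14, and the late heme pools lay above all of them. The 10 fatty acid enzymes averaged -0.07, -0.06, 0.14 and 0.18 in the heme pools of days 2, 4, 7 and 14, against 0.00, 0.01, -0.09, -0.01 and 0.09 in the control pools of days 0 to 14, a smaller late excess and one that hid genes moving both ways.

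**Figure D1:**
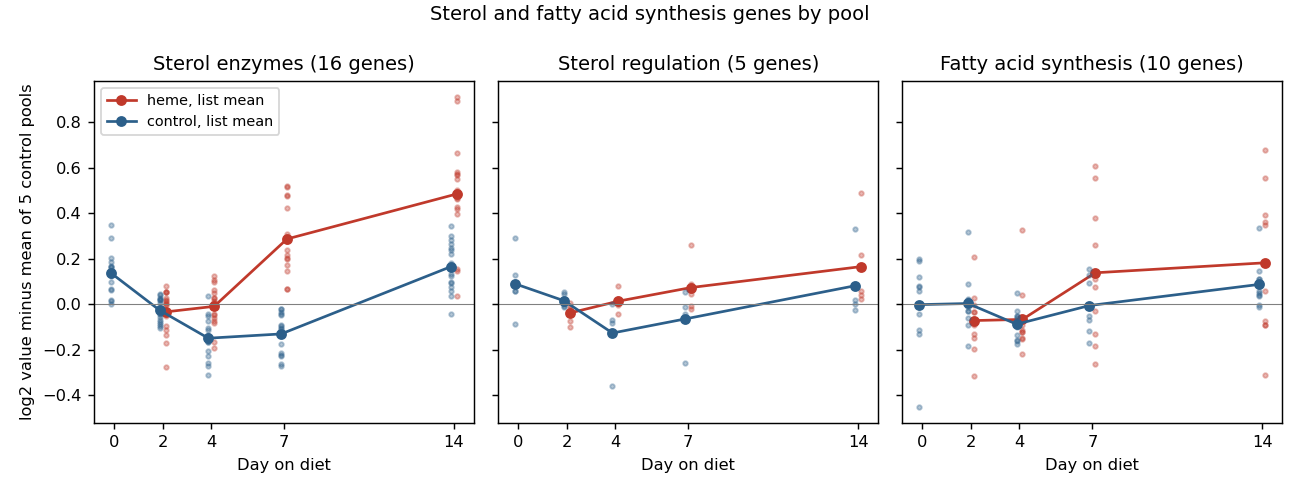
Log2 values of the 16 sterol enzymes, 5 regulators and 10 fatty acid enzymes in each pool, minus the gene's mean over the 5 control pools, by day on diet. Small points are single genes, lines join the list means, heme is red and control blue. The sterol list mean reaches 0.49 in the heme pool of day 14, against 0.17 in the control pool of that day.

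The heme pools were next set against the control pool of the same day, a difference that carries the deviations of both single pools. Relative to the mean of the 5 control pools, the sterol list stood on day 4 at -0.01 in heme and -0.15 in control. On day 7 it stood at 0.29 and -0.13. By same-day difference, 5 of 16 sterol enzymes were higher in heme on day 2, 15 on day 4, 16 on day 7 and 16 on day 14. Of all 14953 genes tested, 47.6%, 51.0%, 41.4% and 44.8% were higher in heme on those days. The median same-day difference of the sterol enzymes was -0.02, 0.12, 0.40 and 0.32 on days 2, 4, 7 and 14. All 16 were higher in heme on both day 7 and day 14, as were 26.6% of all genes tested. Of the 10 fatty acid enzymes, 2, 5, 6 and 6 were higher in heme on days 2, 4, 7 and 14, with medians of -0.10, -0.02, 0.17 and 0.14. The 4 that were lower in heme on both late days were Acly, Acss2, Elovl5 and Fads2. For Elovl5 the difference was -0.01 on day 7 and -0.20 on day 14. The latter was taken against a control pool of 9.21, where the other control pools lay at 9.06 to 9.09.

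**Figure D2:**
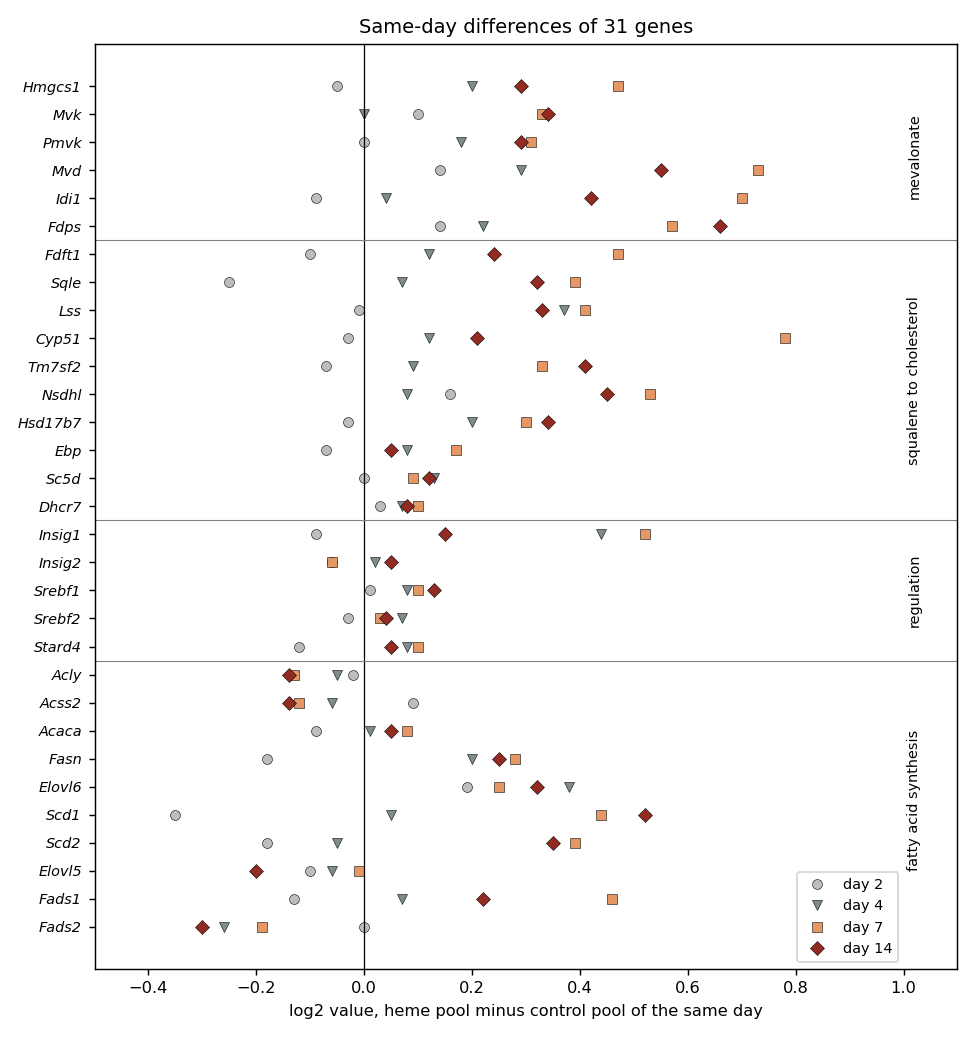
Log2 value of the heme pool minus that of the control pool of the same day for the 31 measured genes, 1 marker per day (days 2, 4, 7 and 14). On days 7 and 14 all 16 sterol enzymes lie right of 0, while fatty acid enzymes lie on both sides.

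The first stretch of the sterol route, from acetyl-CoA to farnesyl diphosphate, was measured through 6 genes. Fdps, farnesyl diphosphate synthase, which joins the isoprenoid units, had 8.77, 8.73, 9.14 and 9.63 in the heme pools of days 2, 4, 7 and 14, against 8.88, 8.63, 8.51, 8.58 and 8.98 in the control pools of days 0, 2, 4, 7 and 14. Mvd, which decarboxylates mevalonate diphosphate to the first isoprenoid unit, had 7.62, 7.69, 8.08 and 8.46 in those heme pools, against 7.69, 7.47, 7.40, 7.35 and 7.91 in the control pools. Both genes were above every control pool on days 7 and 14, while on days 2 and 4 the heme values fell within the control range. Idi1, the isomerase of the isoprenoid units, had 9.33, 9.39, 9.94 and 10.13 in heme pools, against 9.60, 9.42, 9.35, 9.24 and 9.71 in control pools. Hmgcs1, the HMG-CoA synthase that starts the mevalonate route, had 10.25, 10.30, 10.63 and 10.92 in heme pools, against 10.55, 10.29, 10.09, 10.17 and 10.63 in control pools. Idi1 had the same late split, whereas Hmgcs1 on day 7 only equalled its highest control pool to 2 decimals and was above it on day 14. Mvk, mevalonate kinase, had 7.35, 7.27, 7.59 and 7.77 in heme pools, against 7.54, 7.25, 7.28, 7.26 and 7.43 in control pools. Pmvk, the kinase of the following step, had 7.36, 7.36, 7.57 and 7.75 in heme pools, against 7.52, 7.36, 7.19, 7.25 and 7.45 in control pools. In all 6 genes the heme pool of day 14 was the highest of the 9.

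The second stretch, from squalene to cholesterol, held 10 measured enzymes with a wider range of behaviour. Nsdhl, a dehydrogenase that helps strip methyl groups from the sterol ring, had 8.81, 8.67, 9.21 and 9.31 in the heme pools of days 2, 4, 7 and 14, against 8.86, 8.65, 8.59, 8.68 and 8.86 in the control pools of days 0 to 14. Tm7sf2, a sterol reductase, had 8.00, 8.10, 8.33 and 8.52 in heme pools, against 8.05, 8.07, 8.01, 8.01 and 8.11 in control pools. The control pools of Tm7sf2 spanned 8.01 to 8.11, and both late heme pools lay above that. Cyp51, the lanosterol demethylase, had 8.66, 8.62, 9.18 and 9.09 in heme pools, against 8.83, 8.69, 8.50, 8.40 and 8.88 in control pools. Its same-day difference of 0.78 on day 7 was the largest among the sterol enzymes, and it dropped to 0.21 on day 14. Hsd17b7, which acts with Nsdhl on the same methyl groups, had 8.00, 8.05, 8.19 and 8.45 in heme pools, against 8.05, 8.03, 7.85, 7.89 and 8.11 in control pools. Lss, the cyclase that makes lanosterol, had 7.72, 7.79, 8.00 and 8.26 in heme pools, against 7.79, 7.73, 7.42, 7.58 and 7.93 in control pools. Both were above all control pools on days 7 and 14.

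Fdft1 and Sqle, squalene synthase and the epoxidase that follows it, behaved less clearly. Fdft1 had 9.61, 9.59, 9.98 and 10.33 in heme pools, against 10.13, 9.71, 9.47, 9.51 and 10.08 in control pools. Sqle had 8.80, 8.91, 9.25 and 9.58 in heme pools, against 9.37, 9.05, 8.85, 8.85 and 9.26 in control pools. For both, the control pools of days 0 and 14 were as high as or higher than the heme pool of day 7, and only the heme pool of day 14 stood above all controls. The last steps of the route differed least. Ebp, the sterol isomerase, had 9.05, 9.19, 9.31 and 9.31 in heme pools, against 9.18, 9.12, 9.11, 9.14 and 9.26 in control pools. Sc5d, the sterol desaturase, had 9.64, 9.65, 9.69 and 9.78 in heme pools, against 9.69, 9.64, 9.52, 9.60 and 9.66 in control pools. Dhcr7, the reductase that completes cholesterol, had 9.08, 9.13, 9.09 and 9.06 in heme pools, against 9.04, 9.05, 9.06, 8.99 and 8.98 in control pools. Dhcr7 was the only sterol enzyme whose heme pool of day 14 was not above all 5 control pools. That held for 15 of 16 enzymes on day 14 and for 13 of 16 on day 7, while 32.1% and 17.9% of all genes tested had a heme pool above every control on days 14 and 7.

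**Figure D3:**
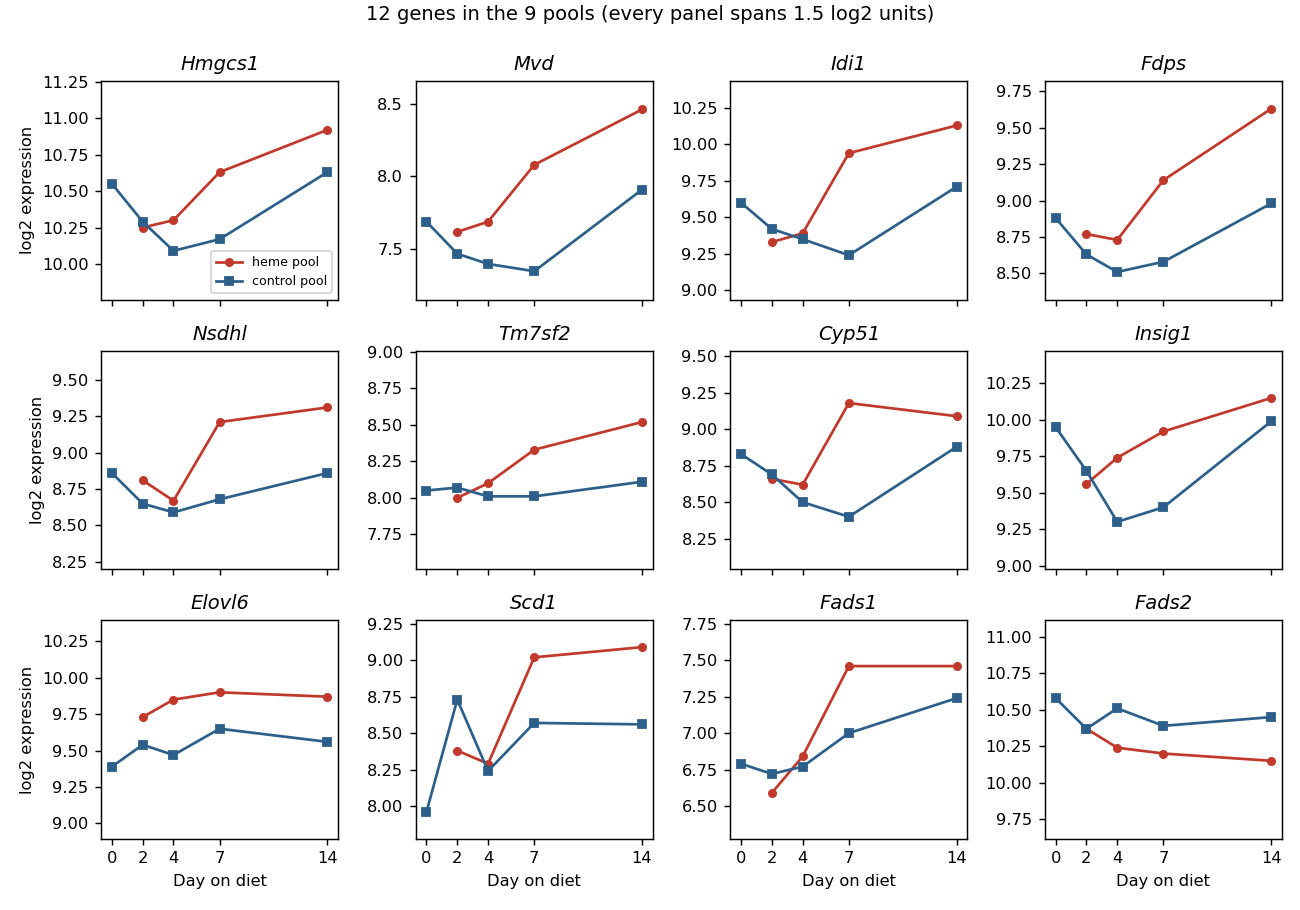
Log2 expression of 12 genes by day on diet, 1 panel per gene, each axis spanning 1.5 log2 units; heme pools are red circles and control pools blue squares. Fdps, Mvd, Idi1, Nsdhl and Tm7sf2 separate late, Elovl6 lies above all controls on every day, and Fads2 lies below them on days 4, 7 and 14.

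Within the heme group, both late pools were above both early ones in 15 of 16 sterol enzymes, Dhcr7 again excepted, and in 7 of 10 fatty acid enzymes, as in 18.8% of all genes tested. The controls' course was also shared within the sterol list. In 15 of 16 sterol enzymes, Dhcr7 being the exception, the control pools of days 0 and 14 were both above those of days 4 and 7, as in 15.3% of all genes tested. The same held for 4 of the 5 regulators and 4 of the 10 fatty acid enzymes. No day had more than 1 control pool, so the spread within a day is unknown.

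Of the regulators, 5 genes were measured. Insig1, which retains SREBP in the endoplasmic reticulum and is itself an SREBP target, had 9.56, 9.74, 9.92 and 10.15 in heme pools of days 2, 4, 7 and 14, against 9.95, 9.65, 9.30, 9.40 and 9.99 in control pools of days 0 to 14. Its same-day differences were -0.09, 0.44, 0.52 and 0.15, and only the heme pool of day 14 lay above all controls. Insig2, its paralog, had 9.35, 9.38, 9.35 and 9.38 in heme pools, against 9.27, 9.41, 9.36, 9.41 and 9.33 in control pools, so the groups overlapped throughout. Srebf1 had 7.98, 7.93, 8.06 and 8.19 in heme pools, against 8.03, 7.96, 7.85, 7.96 and 8.06 in control pools. Srebf2 had 9.45, 9.48, 9.45 and 9.51 in heme pools, against 9.60, 9.47, 9.40, 9.41 and 9.47 in control pools. Stard4, a carrier of cholesterol within the cell, had 9.98, 10.05, 10.10 and 10.11 in heme pools, against 10.11, 10.10, 9.97, 10.01 and 10.07 in control pools. The heme and control values of Srebf2 and Stard4 overlapped almost fully, and for Srebf1 the heme pool of day 7 matched the highest control to 2 decimals while that of day 14 was above all of them.

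The fatty acid enzymes lay on both sides of the controls. Elovl6, the elongase that lengthens palmitate, had 9.73, 9.85, 9.90 and 9.87 in the heme pools of days 2, 4, 7 and 14, against 9.39, 9.54, 9.47, 9.65 and 9.56 in the control pools of days 0 to 14. It was the only measured member with every heme pool above every control pool, a pattern found in 3.26% of all genes tested, and the excess was present from day 2. Scd1, a stearoyl-CoA desaturase, had 8.38, 8.29, 9.02 and 9.09 in heme pools, against 7.96, 8.73, 8.24, 8.57 and 8.56 in control pools. Scd2, its paralog, had 11.24, 11.29, 11.70 and 11.83 in heme pools, against 11.64, 11.41, 11.34, 11.32 and 11.48 in control pools. Both desaturases were above all controls on days 7 and 14, and the early heme pools of Scd2 lay below all of them. Fads1, a desaturase of polyunsaturated fatty acids, had 6.59, 6.84, 7.46 and 7.46 in heme pools, against 6.79, 6.72, 6.77, 7.00 and 7.24 in control pools. Fasn, fatty acid synthase, had 8.81, 9.00, 9.07 and 9.32 in heme pools, against 9.15, 8.98, 8.80, 8.79 and 9.07 in control pools. Fads1 was above all controls on both late days and Fasn on day 14 alone.

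The enzymes that supply acetyl-CoA to the pathway were on the lower side. Acly, the citrate lyase that makes cytosolic acetyl-CoA, had 10.15, 10.07, 10 and 10.11 in heme pools, against 10.24, 10.17, 10.13, 10.13 and 10.24 in control pools. Acss2, which makes it from acetate, had 9.60, 9.45, 9.44 and 9.48 in heme pools, against 9.65, 9.51, 9.51, 9.56 and 9.62 in control pools. Apart from day 2, the heme pools of both genes were below all control pools. Fads2, the desaturase that acts before Fads1, had 10.37, 10.24, 10.20 and 10.15 in heme pools, against 10.58, 10.37, 10.51, 10.39 and 10.45 in control pools. Elovl5, an elongase of polyunsaturated fatty acids, had 8.97, 9.01, 9.07 and 9.01 in heme pools, against 9.06, 9.07, 9.07, 9.09 and 9.21 in control pools. Fads1 and Fads2, successive desaturases of the same route, therefore lay on opposite sides of the controls on days 7 and 14. Acaca, acetyl-CoA carboxylase, had 8.79, 8.64, 8.87 and 8.85 in heme pools, against 8.87, 8.88, 8.63, 8.79 and 8.79 in control pools, with the groups overlapping. On days 4, 7 and 14, 5, 3 and 4 of the 10 fatty acid enzymes were below all 5 control pools, as were 14.8%, 25.2% and 34.5% of all genes tested. Acly and Elovl5 were lower in heme than in the same-day control on all 4 days, as were 12.0% of all genes tested.

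Across all days, limma called 1 of the 31 members, the elongase Elovl6, and none lower, against 0.595% of all genes tested called higher and 0.0736% called lower at an adjusted p under 0.05. Elovl6 was higher in heme by 0.32 on the log2 scale (SE 0.05, adjusted p = 0.0283, 4 heme pools against 5 control pools), a 1.25-fold level. Leaving out the control pool of day 0, 2, 4 or 14, or the heme pool of day 4, 7 or 14, ended the call (adjusted p up to 0.117), while the difference stayed between 0.29 and 0.36. All 16 sterol enzymes had positive differences, from 0.05 to 0.40 with a median of 0.18, and 49.0% of all genes tested were positive with a median near 0. None of the 16 was called: Mvd was the highest at 0.40 (SE 0.17, adjusted p = 0.289) and Ebp the lowest at 0.05. The sterol median was 0.08 without the heme pool of day 14. The fatty acid enzymes ran from -0.22 for Fads2 (SE 0.05, adjusted p = 0.128) to 0.32 for Elovl6, with 5 of 10 positive and a median of 0.04, which was -0.03 without the heme pool of day 14. Without the heme pool of day 2, Fads2 was called lower (adjusted p = 0.0374). The regulators ran from 0.00 to 0.18, with Insig1 the highest, and none was called.

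Each heme pool was also set against the 5 control pools, with the spread taken from the controls and the lone heme pool assumed to vary as they do. On days 2 and 4 no gene was called, and 1385 (9.26%) and 1051 (7.03%) were at an unadjusted p under 0.05, of which 0 and 3 were members. On day 7 no member was called, with 0.876% of all genes called higher and 0.762% lower, and 9 members had an unadjusted p under 0.05, as had 16.8% of all genes. The lowest adjusted p among members on day 7 was 0.0591. On day 14, 8 of 31 members were called higher and 1 lower, where 11.3% of all genes were called higher and 15.8% lower. The control spread for day 14 came from all 5 control pools, only 1 of them from that day, and 27.1% of all genes were called. With arrays centred on their medians, the split over all genes was 2261 higher and 1680 lower, against 1689 and 2362 as deposited, and 11 members were higher.

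The members called higher on day 14 were 7 of 16 sterol enzymes, 1 of 10 fatty acid enzymes and 0 of 5 regulators. In limma, Fdps rose 1.89-fold (log2 0.92, SE 0.18, adjusted p = 0.0169) and Mvd 1.86-fold (0.89, SE 0.21, adjusted p = 0.0263). Idi1 rose 1.59-fold (log2 0.67, SE 0.17, adjusted p = 0.0337) and Nsdhl 1.49-fold (0.58, SE 0.11, adjusted p = 0.0169). Tm7sf2 rose 1.39-fold and had the lowest adjusted p of the members (log2 0.47, SE 0.05, adjusted p = 0.00489), its control pools being so close together. Hsd17b7 rose 1.38-fold (adjusted p = 0.0238), Mvk 1.34-fold (adjusted p = 0.0483) and Elovl6 1.28-fold (adjusted p = 0.033), and Fads2 fell to 0.807 of the control level (log2 -0.31, adjusted p = 0.035). Hmgcs1 was 1.49-fold (adjusted p = 0.0896), Lss 1.48-fold (adjusted p = 0.058) and Fdft1 1.46-fold (adjusted p = 0.193), folds as large as some that were called but with wider control spread. Against the control pool of day 14 alone, with no test, the folds of these sterol enzymes were smaller: 1.58 for Fdps, 1.46 for Mvd, 1.34 for Idi1, 1.36 for Nsdhl, 1.33 for Tm7sf2, 1.27 for Hsd17b7, 1.26 for Mvk, 1.22 for Hmgcs1, 1.26 for Lss and 1.18 for Fdft1. Scd1 was 1.60-fold with an adjusted p of 0.119 and Scd2 1.31-fold with 0.05, just over the threshold. The median difference was 0.49 for sterol enzymes and 0.20 for fatty acid enzymes. The members called higher numbered 3 without the control pool of day 2, 4 without that of day 4, 5 without that of day 7, 7 without that of day 0 and 9 without that of day 14. Fdps, Nsdhl and Tm7sf2 were called in all 5 of those fits. Fads2 was not called without the control pool of day 4, 7 or 14 (adjusted p up to 0.073).

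Whether the diet difference changed with time was tested in the 8 pools of days 2 to 14, as the difference on days 7 and 14 minus that on days 2 and 4. All 16 sterol enzymes had a positive change, from 0.04 to 0.59 with a median of 0.32, where 42.2% of all genes tested were positive with a median of -0.03. The largest were Idi1 at 0.59 (SE 0.20), Cyp51 at 0.45 (SE 0.20) and Sqle at 0.45 (SE 0.22). The fatty acid enzymes had a median of 0.05, with 5 of 10 positive, led by Scd1 at 0.64 (SE 0.19) and Scd2 at 0.48 (SE 0.09), while Elovl6 stood at 0.00 (SE 0.08). In limma no gene passed the adjusted threshold. At an unadjusted p under 0.05 there were 990 genes (6.62%), among them 7 members, and Scd2 had the members' lowest value (unadjusted p = 0.00104, adjusted p = 0.381). The sterol median was 0.14 without the control pool of day 7 and 0.18 without the heme pool of day 14. In the same 8 pools, and as a contrast chosen after seeing the data, days 7 and 14 alone called 3 members higher, with 1.63% of all genes tested called higher. These were Nsdhl (0.49, adjusted p = 0.0208), Scd2 (0.37, adjusted p = 0.0305) and Elovl6 (0.28, adjusted p = 0.044).

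**Figure D4:**
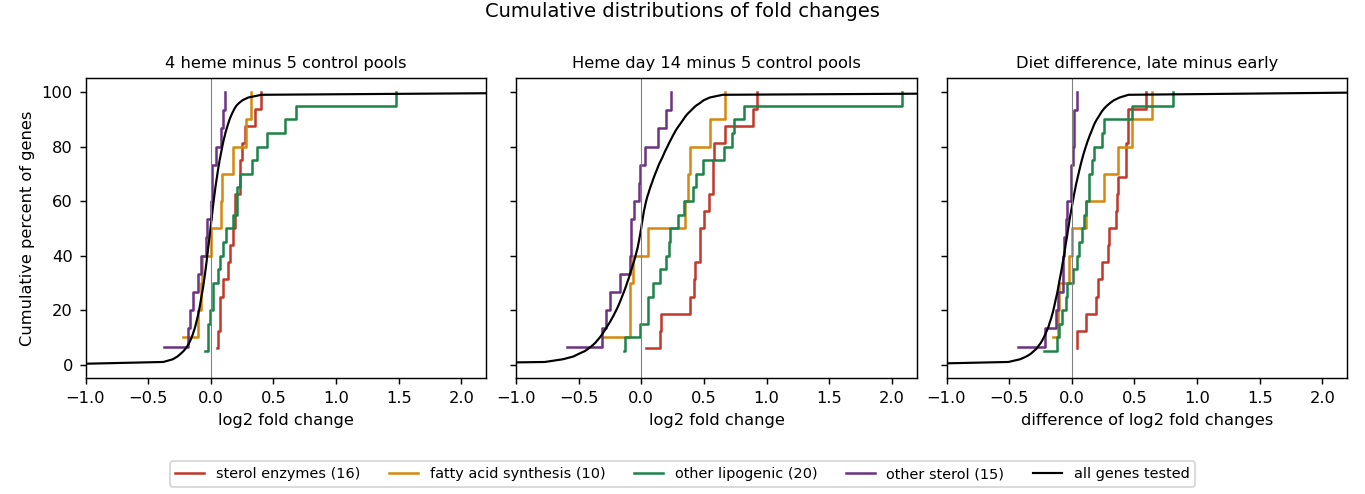
Cumulative percent of genes (vertical) by log2 fold change (horizontal) for 16 sterol enzymes, 10 fatty acid enzymes, 20 other lipogenic genes, 15 other sterol genes and all 14953 genes tested. Panels show 4 heme minus 5 control pools, heme day 14 minus the 5 control pools, and the late minus the early diet difference. The sterol enzymes lie right of 0 in all 3 panels, with medians of 0.18, 0.49 and 0.32.

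Of 20 other lipogenic genes tested, 4 were called higher over all days (0.595% of all genes tested), and 11 higher and none lower on day 14 (11.3% and 15.8% of all genes tested). Every heme pool was above every control pool in 7 of them (3.26% of all genes tested). Me1, the malic enzyme that supplies NADPH, had 8.95, 9.27, 9.90 and 10.18 in the heme pools of days 2, 4, 7 and 14, against 7.84, 8.19, 8.02, 8.17 and 8.28 in the control pools of days 0 to 14. Its same-day difference was 0.76, 1.25, 1.73 and 1.90, a larger one at each later day. Acacb, the mitochondrial-surface acetyl-CoA carboxylase, had 7.53, 7.68, 8.00 and 7.92 in heme pools, against 7.06, 7.35, 7.01, 6.95 and 7.15 in control pools. Lpin2, a phosphatidate phosphatase that makes diacylglycerol, had 9.25, 9.11, 9.24 and 9.40 in heme pools, against 8.56, 8.80, 8.58, 8.69 and 8.67 in control pools. Dgat2, which makes triglyceride from diacylglycerol, had 9.21, 9.30, 9.43 and 9.58 in heme pools, against 8.77, 8.98, 8.94, 8.93 and 9.01 in control pools. In each of these 4 genes the lowest heme pool was above the highest control pool.

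Over all days limma gave Lpin2 a 1.51-fold rise (log2 0.59, SE 0.06, adjusted p = 0.00601), which was called without each single pool in turn. Me1 rose 2.78-fold (adjusted p = 0.0165), Acacb 1.60-fold (adjusted p = 0.0187) and Dgat2 1.37-fold (adjusted p = 0.0233). With day as a block Acacb was not called (adjusted p = 0.0907). Of single pools left out, the control pool of day 0 or 4 or the heme pool of day 7 ended the calls of Me1, Acacb and Dgat2, that of control day 7 or 14 or heme day 14 those of Acacb and Dgat2, and that of control day 2 that of Dgat2 (adjusted p 0.0523 to 0.106). On day 14 the further genes called higher were Agpat2 (0.49), Mid1ip1 (0.72), Elovl1 (0.44), Fads3 (0.41), Oxsm (0.34), Dgat1 (0.22) and Tecr (0.20), enzymes of glycerolipid assembly, chain lengthening, desaturation and mitochondrial fatty acid synthesis, and, in Mid1ip1, an activator of acetyl-CoA carboxylase. Oxsm was not called without any single control pool, nor Fads3 without that of day 7 (adjusted p up to 0.0686). On day 7, Me1, Acacb and Lpin2 were called, Me1 in only 1 of the 5 fits that left out a control pool and the others in 0. Elovl7, an elongase, had the lowest value of the list over all days at -0.05.

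Of 15 other sterol genes tested, none was called over all days, and on day 14 1 was called higher and 5 lower, where 11.3% and 15.8% of all genes tested were. Mylip, the ubiquitin ligase that degrades lipoprotein receptors and is induced by the sterol-sensing liver X receptors, had 8.07, 7.85, 7.67 and 7.57 in heme pools, against 8.26, 8.10, 8.09, 8.21 and 8.16 in control pools. Every heme pool was below every control pool (2.33% of all genes tested), and the gap to the same-day control grew with each sampling day. Limma called Mylip lower on day 7 (log2 -0.49, adjusted p = 0.0391) and on day 14 (-0.59, adjusted p = 0.00606), and over all days it stood at -0.37 (adjusted p = 0.121). The day 7 call was lost without any single control pool (adjusted p up to 0.11). Npc2, which exports cholesterol from lysosomes, Osbpl2, an oxysterol-binding relative, Rnf139, a sterol-regulated ubiquitin ligase, and Stard3, a late endosomal cholesterol carrier, were called lower on day 14 at -0.28, -0.31, -0.25 and -0.17. Npc2 (8.68 to 8.84 against 8.93 to 9.02) and Osbpl2 (9.67 to 9.89 against 9.92 to 10.04) likewise had every heme pool below every control pool. With Mylip, that pattern was found in 3 of the 15 genes. Fdx1, the ferredoxin that feeds mitochondrial sterol hydroxylases, was called higher on day 14 at 0.20. The call of Fdx1 was absent in 4 of the 5 fits without a control pool, and that of Stard3 in those without day 0 or 14 and with arrays centred on their medians. Stard5, another sterol carrier, had the highest value over all days at 0.11.

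Adipocytes also carry many lipogenic genes, so their markers were read beside these results. Lep, a defining adipocyte hormone, was below the filter in these scrapings, and Adipoq, another, was between 5.26 and 5.89 in heme pools and between 4.79 and 6.08 in control pools. The linear sum of 8 adipocyte markers was 1310 to 1419 in heme pools and 1193 to 1445 in control pools. On the log2 scale, the same markers averaged 0.14, 0.10, 0.17 and 0.16 relative to the control mean in heme pools of days 2, 4, 7 and 14. The control pools ran from -0.27 to 0.13, so only the heme pool of day 4 lay within their range. Pck1, the highest of them, was 8.86 to 9.51 in heme pools and 9.41 to 9.63 in control pools. Every heme pool was above every control pool for Cidec (7.46 to 8.12 against 6.73 to 7.30) and Lpl (7.78 to 8.11 against 7.25 to 7.65). That pattern was found in 3.26% of all genes tested, and the other adipocyte markers overlapped between the groups. None was called over all days, while on day 14 Cidec, Lpl and Plin1 were called higher and Pck1 lower. Plin1 read 5.60 in every control pool, so its call rested on controls with almost no spread. Its heme pools read 5.67, 5.46, 5.49 and 5.92 on days 2, 4, 7 and 14. The part of adipocytes in the results was not tested.

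The start regions of 24 of the 31 measured members were read from RefSeq promoters (build GRCm38.p6, 250 bases before to 50 after the gene start), because the sterol enzymes shared their course across the pools. They were searched on both strands for the core of a sterol regulatory element, TCACNCCA, which SREBP binds, and for the CCAAT box, read as ATTGG on the other strand, which the cofactor NF-Y binds. The motifs share no more than the letters CCA. A CCAAT box was present in 13 of 13 sterol enzymes, 4 of 4 regulators and 4 of 7 fatty acid enzymes with a promoter entry. It was also present in 8 of 12 other sterol genes, 12 of 17 other lipogenic genes and 41.4% of the 11805 genes tested that had an entry. Among the members, the sterol element core was found in Hmgcs1 and Srebf2, and it was found in 4.69% of the genes tested. A match is a description of these letters only. The sequences given, with motifs in capitals, are those of Hmgcs1, which holds both motifs, Nsdhl and Tm7sf2, which were called on day 14 in every fit that left out a control pool, and Elovl6, which was called over all days and holds neither. They lie at chr13:119690101-119690400 (plus strand) for Hmgcs1, chrX:72918271-72918570 (plus) for Nsdhl, chr19:6067801-6068100 (minus) for Tm7sf2 and chr3:129532136-129532435 (plus) for Elovl6.
Hmgcs1: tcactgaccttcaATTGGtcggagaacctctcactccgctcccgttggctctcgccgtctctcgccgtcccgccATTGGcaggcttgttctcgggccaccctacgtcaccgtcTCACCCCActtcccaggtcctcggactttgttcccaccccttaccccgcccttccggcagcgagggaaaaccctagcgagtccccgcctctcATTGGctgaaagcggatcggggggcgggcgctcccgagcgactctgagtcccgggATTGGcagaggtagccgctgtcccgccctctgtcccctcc
Nsdhl: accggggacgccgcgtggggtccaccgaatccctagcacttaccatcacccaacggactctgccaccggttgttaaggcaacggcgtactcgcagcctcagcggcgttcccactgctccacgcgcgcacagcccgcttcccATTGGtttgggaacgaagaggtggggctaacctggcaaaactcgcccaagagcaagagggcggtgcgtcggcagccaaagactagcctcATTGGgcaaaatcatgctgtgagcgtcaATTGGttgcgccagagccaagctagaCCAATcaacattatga
Tm7sf2: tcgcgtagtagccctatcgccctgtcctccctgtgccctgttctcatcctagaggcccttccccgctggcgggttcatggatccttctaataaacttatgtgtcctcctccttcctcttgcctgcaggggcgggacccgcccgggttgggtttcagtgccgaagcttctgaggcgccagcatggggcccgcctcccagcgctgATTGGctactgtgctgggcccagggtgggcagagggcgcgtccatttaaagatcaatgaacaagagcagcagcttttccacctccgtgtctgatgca
Elovl6: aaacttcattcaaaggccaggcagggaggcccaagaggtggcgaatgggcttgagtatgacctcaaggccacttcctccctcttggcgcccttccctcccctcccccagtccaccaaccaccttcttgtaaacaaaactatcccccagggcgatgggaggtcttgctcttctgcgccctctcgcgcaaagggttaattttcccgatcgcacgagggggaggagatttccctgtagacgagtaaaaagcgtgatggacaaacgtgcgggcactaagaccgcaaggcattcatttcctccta

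Hmgcs1 holds 1 sterol element core and 4 CCAAT boxes in this window, Nsdhl 4 CCAAT boxes and Tm7sf2 1. The fatty acid enzymes with a CCAAT box were Acly, Acss2, Elovl5 and Fasn, of which the first 3 were lower in heme than in the same-day control on days 7 and 14 and Fasn was higher.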

How the data were processed

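Per the submitters' processing notes, the deposited log2 values were made by the authors with RMA, which corrects background, quantile-normalizes and summarises probesets, so a shift common to all genes would be removed; the number of arrays limits the precision. Of 35556 probesets, 21789 had 1 gene symbol in the platform annotation, 1621 several and 12146 none; 21698 matched RefSeq by Entrez identifier. The probeset with the highest mean stood for a gene, and genes with a mean under the 25th percentile (4.716) were left out, leaving 14953. limma 3.58.1 (R 4.3.3; lmFit, eBayes with intensity trend) compared heme with control pools, each heme pool with the 5 control pools, and late with early diet differences, with Benjamini-Hochberg adjustment over all genes; it was tested on simulated data. Figures used matplotlib 3.10.9 in Python 3.11.15. Nothing in the labels repeats a pool, so p-values reflect how pools taken on different days vary. Members and lists were chosen with earlier results of these data known. Named with every pool's value were all members; of the other lists, genes called in any comparison and those with the highest and lowest difference were named. Day, shared by heme and control pools per the labels, was a block in an alternative fit. The correlation of same-day deviations was 0.658, 0.00, 0.30 and 0.204 on days 2, 4, 7 and 14. For the heme pools of days 4, 7 and 14, a control pool of another day (7, 14 and 4) correlated more, at 0.116, 0.396 and 0.296. Other alternatives changed the filter, the probeset rule, the variance model, the centring and the pools included.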

Additional observations from a re-analysis of the deposited data

Results flagged for a closer look

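Elovl5, an elongase of polyunsaturated fatty acids, had 9.21 in the control pool of day 14, far from the other 4 control pools, which lay between 9.06 and 9.09. The gap was 0.831 of the group's whole range, above the critical value of 0.71 for 5 samples. It was 1 of 62 groups of pools examined, and chance alone marks about 1 in 20, so a single mark is fewer than chance gives.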

How the results depend on the processing

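No called result changed sign under any setting run, but many calls did not hold, and the fatty acid median over all days, near 0, took either sign. For heme minus control, members called higher numbered 0 with no intensity trend, without both pools of day 7, without both pools of day 14 and with days 2 and 4 only, and 3 with days 7 and 14 only; without single pools the range was 0 to 1 in each direction. Without both pools of day 7 or of day 14, 0 genes were called in either direction (1567 and 1507 at an unadjusted p under 0.05), against 89 higher and 11 lower in all pools. Genes called lower were 6 with no trend and 17 with array weights; days 7 and 14 only called 243 higher and 254 lower, days 2 and 4 only 11 and 0, and single pools left out gave 30 to 172 higher and 0 to 79 lower. With day as a replicate block 77 genes and the same member, Elovl6, were called (adjusted p = 0.0463), and the block changed no other call among the members. The sterol median was 0.36 with days 7 and 14 only (0.08 to 0.26 without single pools). The fatty acid median was 0.17 with days 7 and 14 only, -0.04 with days 2 and 4 only and with array weights, and -0.03 to 0.08 without single pools. For late minus early, the medians without single pools were 0.14 to 0.44 and -0.02 to 0.13. Day 2 called 0 to 16 genes higher without single control pools, and day 4 called 1 gene with the stricter filter, averaged probesets, robust variance or centred arrays. Day 7 called 54 higher and 41 lower with no filter, 67 and 48 with no trend, 199 and 194 with the filter at the median, which called 1 member, and 198 higher with robust variance, against 131 and 114; without single control pools the ranges were 3 to 38 and 5 to 29. Day 14 called 892 genes higher with the filter at the median, 1140 to 1488 higher and 1763 to 2129 lower without single control pools, and 3 to 9 members higher and 0 to 1 lower. With arrays centred on their medians day 14 called 2261 genes higher and 1680 lower, and 11 members higher, with Lss, Pmvk and Scd2 added. The cause of these changes was not tested. With 1 pool per day and diet, spread between mice is not visible.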
